A study of Bos taurus with 81 samples.

Results

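The H3K4me3 peak lists of bovine 8-cell embryos grown with and without the transcription inhibitor α-amanitin were compared on the 29 autosomes. The comparison used 4 of the 81 libraries of the series, 2 from treated embryos (8A) and 2 from untreated embryos of the same age (8C). All embryos came from slaughterhouse oocytes that were matured and fertilized in vitro, and both groups were collected at 56 h post-insemination. For 8A the culture medium held 50 μg/ml α-amanitin, and no genotype or breed is given. Each library pooled about 1000 to 1500 blastomeres and was made by CUT&Tag, in which an antibody against the histone mark guides a transposase that cuts and tags the DNA nearby. The labels do not say whether the 2 libraries of a group came from separate fertilization rounds, so their spread may be technical. Untreated libraries of the same mark, 2 per stage, gave the earlier status in germinal vesicle oocytes (GV) and in 2-cell (32 h) and 4-cell (44 h) embryos (2C, 4C). Later status came from morulae (MO, 122 h), blastocysts (BL, 172 h), inner cell mass (ICM) and trophectoderm (TE).

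Members were 1 kb bins, called marked in a library where peaks covered at least 50% of the bin. Of 2488115 autosomal bins, 129095 (5.19%) were marked in at least 1 of the 4 libraries. A bin marked in all 4 was called kept, a bin marked in both 8C and in no 8A library was called 8C-only, and the reverse was called 8A-only. The build is ARS-UCD1.2. Genes and sequences of that build were not used here, so regions are given by position.

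H3K4me3, trimethylation of lysine 4 of histone H3, marks active promoters and CpG-rich promoters that are poised for activity. Growing mouse oocytes are known to carry an unusual form of the mark that spreads over wide stretches away from promoters and is removed when the embryonic genome becomes active. In cattle the main wave of embryonic transcription is known to start around the 8-cell stage. α-Amanitin binds RNA polymerase II and stops messenger RNA synthesis, so that treated embryos rely on maternal stores.

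The 4 lists held similar numbers of peaks, but those of 8A were narrower. There were 83244 and 79829 autosomal peaks in 8A replicates 1 and 2, and 73056 and 91628 in 8C replicates 1 and 2, so the groups overlapped in number. Median peak width was 550 and 500 bp in 8A against 600 and 850 bp in 8C. Peaks of at least 2 kb numbered 3369 and 2249 in 8A and 7591 and 14336 in 8C. Covered length was 60.4 and 52.2 Mb in 8A, and 68.6 and 112 Mb in 8C. Both 8A libraries lay below both 8C libraries in width, in number of wide peaks and in covered length, and the 8C libraries differed more from each other than replicate 1 did from 8A. The difference in mean log2 covered length was -0.64, and it was -0.29 against 8C replicate 1 alone and -1.0 against 8C replicate 2 alone. The exact two-sided permutation test gave p = 0.33, the smallest p that 2 libraries against 2 allow (adjusted p = 0.417 over 5 measures). The number of peaks gave a difference of -0.01 (exact permutation p = 1).

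Sequencing depth was unknown, because the lists give no read totals. The score that the authors deposited with each peak has a meaning not given in the sources used here, and its lowest value was 10 and 9 in 8A and 11 and 16 in 8C. That floor was highest in 8C replicate 2, the library with the widest peaks, and its part in the differences below was not tested. Bin counts, stage shares of 8C-only bins and widths at kept sites are therefore also given for each 8C replicate. The main ones are also given in lists trimmed by score to 52.2 Mb each. Bin paths, positions and other marks are given with both 8C libraries together unless stated.

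Most bins marked in both 8A libraries were also marked in both 8C libraries, whereas a part of those marked in both 8C libraries was in neither 8A library. Kept bins numbered 33069, which was 25.6% of the bins marked in any of the 4 libraries and 86.2% of the 38370 bins marked in both 8A libraries. Another 15594 bins (12.1%) were 8C-only, which was 24.7% of the 63228 bins marked in both 8C libraries. Only 733 bins (0.568%) were 8A-only. The other 79699 bins were mixed, and 39555 of these were marked in 8C replicate 2 and in none of the other 3 libraries. Overlap was uneven within groups too. Of the bins of 8A replicate 2, 77.7% were in 8A replicate 1, 78.2% in 8C replicate 1 and 93.3% in 8C replicate 2. Of the bins of 8A replicate 1, 65.4% were in 8A replicate 2, 73.9% in 8C replicate 1 and 91.3% in 8C replicate 2. Of the bins of 8C replicate 1, 92.2% were in 8C replicate 2, and 53.9% the other way.

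Against 8C replicate 1 alone, 33302 bins were kept (37.2% of 89540), 19866 were 8C-only (22.2%) and 5068 were 8A-only (5.66%). Against 8C replicate 2 alone, 37404 bins were kept (30.0% of 124823), 55149 were 8C-only (44.2%) and 966 were 8A-only (0.774%). The kept count was thus similar for both replicates, while the 8C-only count was larger with replicate 2 and the 8A-only count larger with replicate 1. In the trimmed lists the sides came closer, with 25763 kept, 6176 8C-only and 4212 8A-only bins for both replicates together. The trimmed counts for 8C replicate 1 were 29487, 13081 and 7030, and those for replicate 2 were 28581, 13148 and 7936. With a single 8C replicate an 8C-only bin needs a mark in 1 library and an 8A-only bin in 2, so those counts favour 8C-only bins by definition. With both replicates the 8C-only count was the larger one in deposited and trimmed lists. The size of the imbalance changed with trimming, which altered list length, peak number and peak width together.

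**Figure D1:**
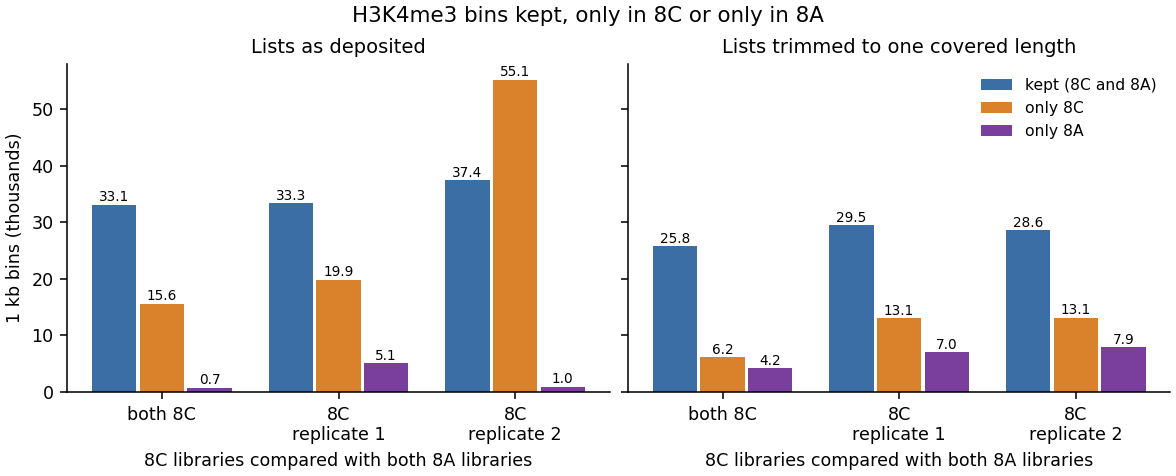
Number of 1 kb bins (y axis, in units of 1000 bins) that were kept, only in 8C or only in 8A, with both 8C libraries or each 8C replicate (x axis) set against both 8A libraries. The left panel uses the lists as deposited and the right panel lists trimmed to one covered length, where the 8A-only bar for both replicates stands at 4212 bins instead of 733 and the 8C-only bar at 6176.

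Most 8C-only bins were not empty of peaks in 8A. Of the 15594 bins, 11332 (72.7%) held at least some peak bases in an 8A library, and 4262 (27.3%) held none. Next to a kept bin lay 5256 (33.7%), and 6539 (41.9%) lay more than 10 kb from any kept bin. Most stood alone, with 78.6% of 8C-only bins having no 8C-only neighbour, and the longest run was 7 kb. Kept bins formed runs of up to 28 kb, and 36.3% of them stood alone. Of the 733 8A-only bins, 712 (97.1%) stood alone. By the deposited score, peaks centred in 8C-only bins had a median percentile of 52.5 in the list of 8C replicate 1 and 61.5 in that of replicate 2, against 80.1 and 87.8 for peaks centred in kept bins. In 8A-only bins 173 peaks of 8C replicate 1 and 180 of 8C replicate 2 were centred, so some of these bins were not empty of peaks in 8C.

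The classes differed in their H3K4me3 before and after the 8-cell stage, in libraries that did not define them. Kept bins were nearly all older than the 8-cell stage. They were marked in 85.7% and 89.9% of cases in the GV libraries, 96.8% and 96.2% at 2C and 96.3% and 97.7% at 4C. After the 8-cell stage the shares were 50.9% and 51.9% in MO, 46.9% and 49.4% in BL, 44.3% and 44.8% in ICM and 49.8% and 47.8% in TE. Over all autosomal bins the shares ranged from 3.85% to 7.47% per library up to 4C and from 1.56% to 2.02% from MO on.

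8C-only bins were mixed in their earlier status. In GV libraries 45.1% and 53.1% were marked, and at 4C 45.8% and 54.3%. In the MO libraries 38.9% and 40.8% were marked, and in BL 36.0% and 37.6%. They were thus less often marked than kept bins in each of the 14 libraries, with a wide gap before the 8-cell stage and a narrow one after it. The order in MO depended on the setting. In both MO libraries were 55.9% of kept and 57.3% of 8C-only bins when the trimmed lists of both 8C replicates were used, 52.4% and 43.5% with trimmed replicate 1 and 51.6% and 38.3% with trimmed replicate 2. In bins of 5 kb the order was turned, with 24.7% of kept and 41.2% of 8C-only bins. With 8C replicate 1 alone the shares were 40.9% and 48.9% at 4C and 34.3% and 36.2% in MO. With 8C replicate 2 alone they were 35.7% and 44.8% at 4C but 17.2% and 18.5% in MO, a lower MO share than with replicate 1. Of the 39555 bins marked in 8C replicate 2 and no other library of the 4, 7.49% were marked in both MO libraries and 84.7% in no library from MO on. For the 4272 bins marked in 8C replicate 1 and no other library of the 4, these shares were 16.0% and 73.8%, and for all autosomal bins 1.65% and 97.0%.

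8A-only bins were mostly marked before the 8-cell stage and not after it. They were marked in 68.1% and 78.7% of cases in GV oocytes and 70.3% and 78.0% at 4C, and in 3.68% and 4.77% in MO. Of the 733 bins, 12 (1.64%) were marked in no library before the 8-cell stage, against 89.9% of all autosomal bins. In no library of MO, BL, ICM or TE were 668 (91.1%) marked, against 41.2% of kept bins, 52.1% of 8C-only bins and 97.0% of all autosomal bins. In the trimmed lists, 78.6% of the 4212 8A-only bins were marked in both 4C libraries and 5.29% in both MO libraries. The trimmed 8C-only bins had 38.1% in both 4C and 57.3% in both MO libraries. In trimmed lists of each 8C replicate the MO shares were 43.5% (8C-only) and 8.14% (8A-only) for replicate 1 and 38.3% and 16.1% for replicate 2. Trimming left out low-scoring 8C peaks, so most of the 4212 bins were marked in a deposited 8C list. The contrast in trimmed lists is therefore no independent support for that in the deposited lists.

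**Figure D2:**
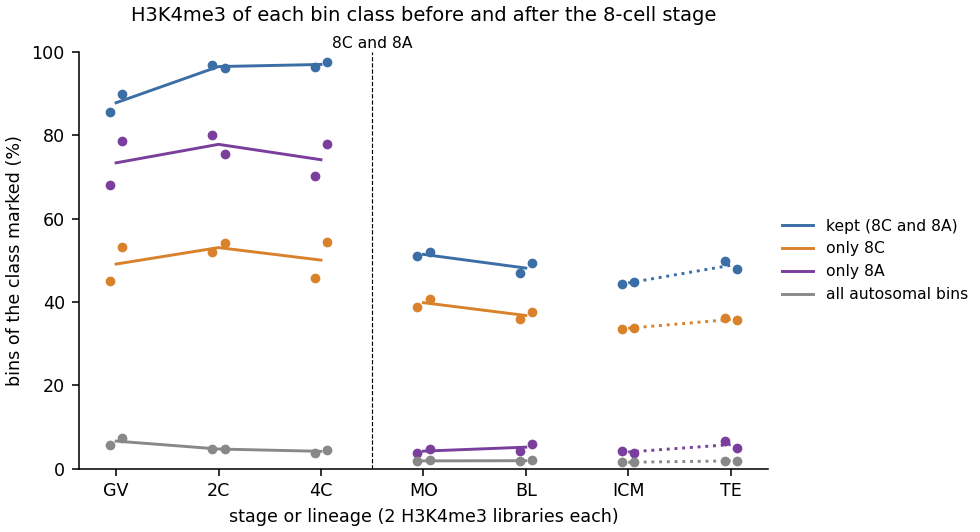
Percentage of the bins of each class marked by H3K4me3 (y axis) in each library (points) of the stages and lineages on the x axis, with lines through group means and the grey line giving all autosomal bins. Kept and 8A-only bins start high, and from MO on kept bins stay between 44.3% and 51.9% while 8A-only bins lie under 7%.

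Crossing 4C with MO status gave the paths of single bins. Of the 33069 kept bins, 15487 (46.8%) were marked in both 4C and both MO libraries, and 14333 (43.3%) were marked in both 4C and in neither MO library. Kept bins absent from both 4C libraries numbered 218 (0.659%). Among 8C-only bins, 5400 (34.6%) were in neither 4C library, and 5420 (34.8%) were in both. Of the 5400, 2681 had no mark in the GV and 2C libraries either, and the others were marked in at least 1 of those. Of the bins absent from 4C, 2289 (42.4%) were marked in both MO libraries and 2674 (49.5%) in neither. Of those already present at 4C, 1729 (31.9%) were in both MO libraries and 3440 (63.5%) in neither. No mark in any of the 6 earlier libraries and a mark in all 8 later ones was found in 934 8C-only bins (5.99%), 9 kept bins (0.0272%), 1 8A-only bin (0.136%) and 0.158% of all autosomal bins. The reverse path, all 6 earlier and none of the 8 later libraries, was found in 1832 8C-only (11.7%), 10813 kept (32.7%) and 253 8A-only bins (34.5%), and in 1.18% of all autosomal bins.

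Where H3K4me3 was kept, it covered less in 8A. Kept sites were defined as merged regions of the 4 lists with a peak in each list, and 31480 such sites were found. For libraries of other stages, only bases within these regions were counted. The median covered length per site was 1150 and 1000 bp in 8A, and 1450 and 1900 bp in 8C. Both 8A libraries lay below both 8C libraries, and also below the GV, 2C and 4C libraries, whose medians were 1300 to 1500 bp. The difference of mean log2 medians between 8A and 8C was -0.63 (exact two-sided permutation p = 0.33, the smallest possible, adjusted p = 0.417), with -0.44 against 8C replicate 1 and -0.83 against 8C replicate 2 at these sites. At 17514 sites (55.6%) both 8A libraries covered less than both 8C libraries, and at 396 (1.26%) both covered more. For 8C replicate 1 alone, 18062 sites (57.4%) were narrower and 5341 (17.0%) wider in both 8A libraries, and for replicate 2 alone 28120 (89.3%) and 564 (1.79%). In trimmed lists, 60.3% of 16708 kept sites were narrower and 1.93% wider in both 8A libraries, with medians of 1600 and 1500 bp in 8A and 2000 and 2500 bp in 8C. Trimming left 58644 and 79829 peaks in 8A and 35378 and 18499 in 8C, with median peak widths of 700 and 500 bp against 1200 and 2450 bp, so it retained the wide 8C peaks and is no independent support for narrower 8A peaks.

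Replicates differed as well. The median ratio per site was 0.905 for 8A replicate 2 over 8A replicate 1 and 0.788 for 8C replicate 1 over 8C replicate 2. Ratios of 8A to 8C replicate 1 were 0.857 and 0.766 for the 8A replicates, and those to 8C replicate 2 were 0.653 and 0.580. The gap between 8A replicate 1 and 8C replicate 1 was therefore smaller than that between the 8C replicates.

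The narrowing differed between sites with and without H3K4me3 in the morula. At the 15326 sites with a peak in both MO libraries, the median covered length was 1350 and 1250 bp in 8A, 1850 and 2200 bp in 8C, and 1600 and 1650 bp at 4C. Here both 8C medians lay above both 4C medians, and both 8A medians below them. Both 8A libraries covered less than both 8C libraries at 72.6% of these sites. Bases at 4C and in MO were counted only within regions set by the 8A and 8C peaks. That can lower 4C lengths but not 8C lengths, and a wide region is more likely to hold an MO peak. The part of these limits in the pattern was not tested. At the 15111 sites without an MO peak the medians were 950 and 800 bp in 8A, 950 and 1600 bp in 8C, and 1200 and 1300 bp at 4C, and 38.9% of sites were narrower in both 8A libraries. The ratio of 8A to 8C replicate 1 was 0.736 with an MO peak and 0.929 without one, whereas the ratio to 8C replicate 2 was 0.616 and 0.615. The 8C replicates differed in this respect: at sites without an MO peak, replicate 1 had the median of 8A replicate 1, and replicate 2 a median above that of 4C. In trimmed lists the ratios to replicate 1 were 0.758 and 0.982, and those to replicate 2 were 0.635 and 0.680.

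By width in MO, the ratio to 8C replicate 1 was 0.806 at sites with 500 to under 1000 bp, 0.729 at 1000 to under 2000 bp, 0.714 at 2000 to under 4000 bp and 0.794 at 4000 bp or more. The ratio to 8C replicate 2 was 0.622, 0.603, 0.617 and 0.706 in the same order, and 0.615 without an MO peak. Against replicate 2 it thus changed little with MO width except at the widest sites, where it was nearer to 1. Both 8A libraries were narrower than both 8C libraries at 54.1% of the sites with 500 to under 1000 bp and at 84.3% of the 656 widest. Among classes of 4C width the widest had the ratios nearest to 1, with 0.938 against 8C replicate 1 and 0.767 against replicate 2 at the 2082 sites of 4000 bp or more at 4C.

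**Figure D3:**
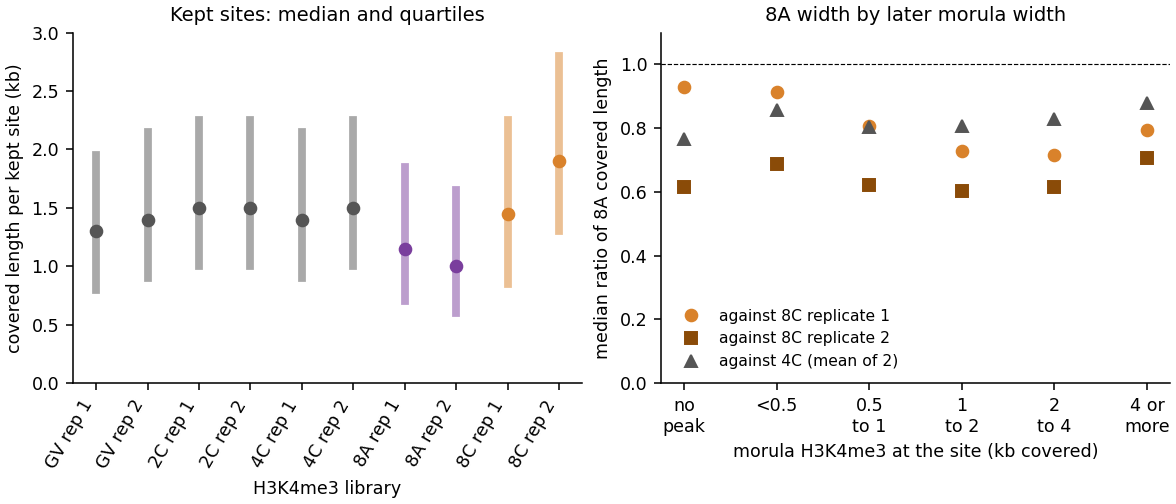
Left, median (points) and quartiles (bars) of the length in kb covered by H3K4me3 at the 31480 kept sites in each library from GV to 8C, where both 8A medians lie below all others. Right, median ratio of the mean 8A length to 8C replicate 1, 8C replicate 2 or the 4C mean (y axis), by the length covered in MO (x axis). The ratio to replicate 1 is 0.929 without an MO peak and 0.714 at 2 to 4 kb, whereas that to replicate 2 is 0.615 and 0.617.

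Bases of 8C peaks missing in 8A were of 2 kinds, in peaks that 8A missed altogether and in peaks that it met in part. Of the peaks of 8C replicate 1, 68.3% and 64.2% were met by a peak of 8A replicate 1 and 2, against 89.2% by 8C replicate 2. In the peaks that were met, 72.5% and 67.4% of the bases were covered in 8A, against 93.6% in 8C replicate 2. For peaks of 8C replicate 2, 56.3% and 52.4% were met in 8A and 57.7% in 8C replicate 1, with 62.1% and 57.1% of bases covered against 71.4%. Peaks missed by 8A replicates 1 and 2 held 11.6 and 13.4 Mb of 8C replicate 1 and 28.4 and 31.6 Mb of 8C replicate 2. Uncovered bases in peaks that were met came to 15.7 and 18.0 Mb, and 31.9 and 34.7 Mb. Of the uncovered bases in peaks that were met, 79.5% to 81.3% lay outside the outermost 8A peak edges and the rest in gaps between 8A peaks. Between the 8C replicates the edge share was 84.3% and 84.7%, so edges held most of the uncovered bases of met peaks there too. Of the kept sites, 52.9% and 51.9% held a single peak in 8A, against 64.0% and 79.9% in 8C. The 8C replicates differed more from each other in this share than replicate 1 did from 8A. Kept sites were merged from the lists of both groups, so a list with wider peaks more easily holds a single peak per site. Whether 8A peaks were more broken up apart from their width was not tested.

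Peak centres taken from other stages gave the same picture without using the 4 lists to choose the sites. At 59272 centres of regions of at least 500 bp covered in both 4C libraries, 66.8% and 61.2% were covered in 8A, and 64.0% and 85.3% in 8C. At 1 kb from the centre the values were 28.2% and 24.3% in 8A, and 32.5% and 48.4% in 8C. Centres of 4C peaks were thus covered about as often in 8A as in 8C replicate 1, and flanks less often. At 23421 centres of MO regions, 56.4% and 52.1% were covered in 8A, 70.9% and 75.8% in 8C, and 64.7% and 67.8% at 4C. For these later sites 8A lay below both 8C and 4C at the centre itself, and at 1 kb 24.8% and 21.8% were covered in 8A against 36.6% and 47.1% in 8C.

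**Figure D4:**
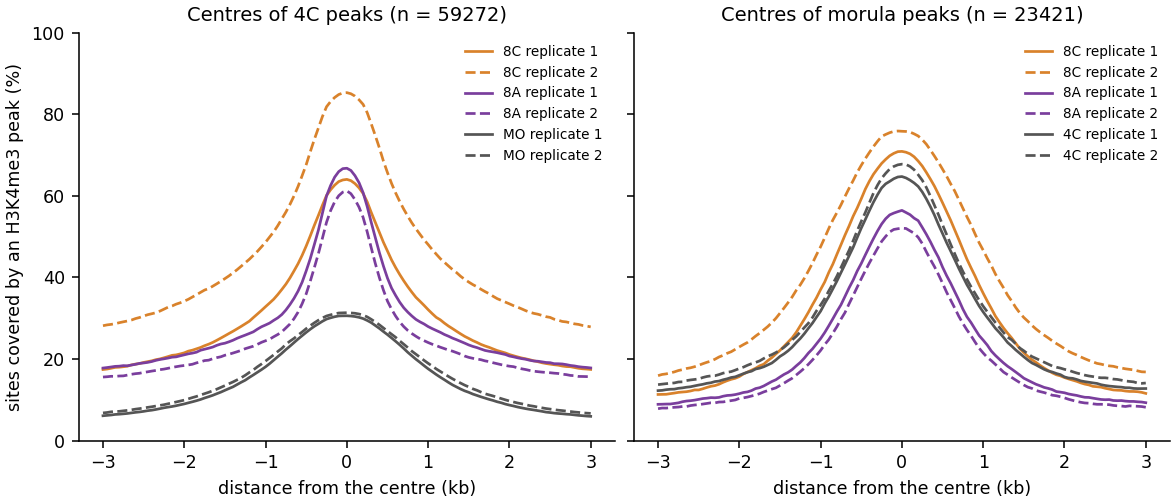
Percentage of sites covered by an H3K4me3 peak (y axis) by distance in kb from the centres of 4C regions (left) and MO regions (right), with a line for each library. At 4C centres the 8A lines reach the height of 8C replicate 1 but are narrower, and at MO centres both 8A lines lie below the 8C and 4C lines.

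H3K27ac, an acetylation of histone H3 found at active promoters and enhancers, was profiled in other pools of the same groups. It differed between the classes and, within them, with 4C and MO status. Over all autosomal bins H3K27ac was marked in both libraries in 2.65% for 8A and 2.56% for 8C. In kept bins these shares were 66.7% for 8A and 35.8% for 8C, and 26.7% of kept bins had H3K27ac in both 8A and no 8C library, against 1.67% the other way. In 8C-only bins the shares were 30.3% for 8A and 34.5% for 8C. With 8C replicate 1 alone they were 27.4% and 31.4%. With 8C replicate 2 alone they were 23.5% and 20.3%, so the order depended on the replicate. The 2289 8C-only bins absent from both 4C libraries and marked in both MO libraries had H3K27ac in both 8C and no 8A library in 27.2% and the reverse in 1.00%, where all autosomal bins gave 1.14% and 1.23%. In the 14333 kept bins that 4C had and MO lacked, the balance was the other way, with 0.649% against 38.3%. Bins of the first kind thus had H3K27ac more often in 8C, and bins of the other kind more often in 8A. Both directions also occurred within a class. The 3440 8C-only bins that 4C had and MO lacked gave 2.62% against 20.5%. The 98 kept bins absent from 4C and marked in both MO libraries gave 17.3% against 4.08%. With a mark in both 4C and both MO libraries, kept bins gave 2.18% against 16.8% and 8C-only bins 9.54% against 6.42%. The balance thus varied with both class and stage status. In the trimmed lists 8C-only bins had H3K27ac in both libraries in 29.6% for 8A and 43.1% for 8C.

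Open chromatin and H3K27me3, the mark of Polycomb repression, also differed between classes. In blastocysts, all 3 ATAC-seq libraries marked 52.4% of kept, 26.2% of 8C-only and 7.64% of 8A-only bins, against 2.35% of all bins. H3K27me3 at 8C marked 13.3%, 5.92% and 27.4% of the classes in the same order (4.31% of all bins), and in MO 47.8%, 26.2% and 64.4% (5.26%). 8A-only bins thus had the highest shares of H3K27me3 and the lowest of open chromatin.

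**Figure D5:**
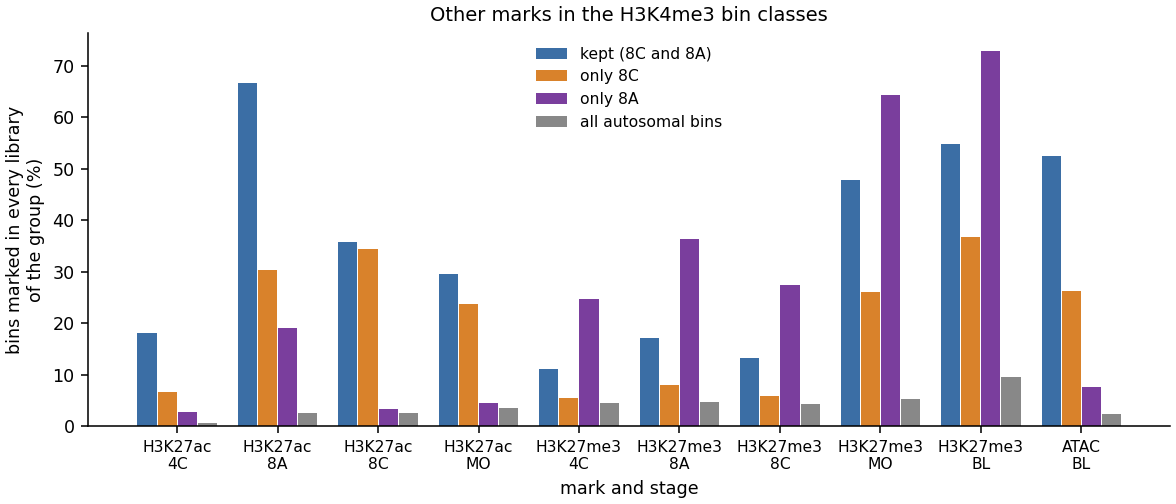
Percentage of the bins of each class (y axis) marked in every library of the mark and stage on the x axis, with grey bars for all autosomal bins. Kept bins have H3K27ac in 66.7% at 8A and 35.8% at 8C, and 8A-only bins have the tallest H3K27me3 bars.

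The 6 longest stretches covered in both 8C libraries and in neither 8A library measured 2750 to 3550 bp. A stretch of 3050 bp (chromosome 10, 4467801 to 4470850) was nearly unmarked before the 8-cell stage, with 0 bp in both GV libraries and 350 and 0 bp at 4C. It was covered over its whole length in both 8C libraries and in all 8 libraries from MO on. H3K27ac covered 2550 and 2850 bp of it in 8C and 0 bp in both 8A libraries, so both marks were missing there under the inhibitor. The longest stretch (chromosome 16, 34906751 to 34910300) had another course, with 1950 and 2500 bp in MO and 0 bp in BL, ICM and TE. A stretch on chromosome 7 (29020951 to 29023800) had 2750 and 2850 bp in MO, and then 2750 and 2400 bp in ICM against 0 bp in both TE libraries. The stretch on chromosome 11 (99196901 to 99199650) had 1500 and 1750 bp in GV and was fully covered in all 8 libraries from MO on. On chromosome 19 (48986801 to 48989850), 1650 and 1150 bp were covered at 4C, and 2050 to 3050 bp in the libraries from MO on. The stretch on chromosome 4 (27809151 to 27812200) had H3K27ac in 8A as well, with 2600 and 2050 bp against 3000 and 3050 bp in 8C, and its H3K4me3 was 0 bp in BL, ICM and TE. Of these 6, 4 were thus still covered in both BL libraries and 2 were not.

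The 3 longest stretches found in both 8A and neither 8C library were short, at 950 to 1000 bp. They lay on chromosome 16 (80778601 to 80779600), chromosome 6 (115079251 to 115080200) and chromosome 8 (103500051 to 103501000). All 3 were covered over 550 to 1000 bp in each GV, 2C and 4C library and over 0 bp in each library from MO on.

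The largest narrowing among kept sites was on chromosome 23 (48150301 to 48160050), where 3650 and 3400 bp were covered in 8A and 9200 and 9300 bp in 8C. This site had 5150 and 5350 bp at 4C and 9650 and 9750 bp in MO. A site on chromosome 18 (16797001 to 16803150) had 700 and 600 bp in 8A, 5900 and 5850 bp in 8C, 1700 and 1600 bp at 4C and 3150 and 3550 bp in MO. On chromosome 19 (36014751 to 36021350) 1150 and 1250 bp in 8A stood against 6350 and 5750 bp in 8C, with 1450 and 950 bp at 4C and 5400 and 5450 bp in MO. H3K27ac at the same site covered 1400 and 1850 bp in 8A and 6300 and 6250 bp in 8C. At these 3 sites 8A was below 4C or within its range, and 8C lay far above 4C. Sites of this kind were chosen by the gap between the smaller 8C and the larger 8A length. That rule favours long 8C and short 8A lengths, so their place relative to 4C was partly set by the choice. The other 3 sites of this kind were on chromosome 18 (55897901 to 55912550), chromosome 19 (26959351 to 26966250) and chromosome 7 (5177151 to 5185350), with 1600 to 8750 bp in 8A and 6400 to 14500 bp in 8C.

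At the 3 widest kept sites the lengths in 8A and 8C overlapped, and little or no H3K4me3 was left in MO. These sites were chosen by their smallest length over the 4 libraries, a rule that favours similar lengths in 8A and 8C. The site on chromosome 29 (50048951 to 50077450) had 27000 and 25800 bp in 8A, 26800 and 28200 bp in 8C, 27250 and 27400 bp at 4C, and 0 and 750 bp in MO. Its H3K27ac covered 23350 and 24400 bp in 8A and 3600 and 2650 bp in 8C. The sites on chromosome 16 (80381501 to 80411000) and chromosome 6 (116793151 to 116821100) likewise had 22850 to 26750 bp of H3K4me3 in 8A and 23150 to 27850 bp in 8C. H3K27ac at the chromosome 16 site was 14150 and 15600 bp in 8A and 0 bp in both 8C libraries. In MO these sites had at most 1300 bp of H3K4me3, and H3K27me3 covered 11850 to 29500 bp of the 3 sites.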

How the data were processed

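One peak list per library was deposited by the authors, with a whole-number score per peak whose meaning the lists do not give. Per the submitters' processing notes, the tools were SICER, Picard 2.26.10, BWA 0.7.9a, SAMtools 1.9, cutadapt 1.8.3 and Trim Galore 0.4.0, and the build was ARS-UCD1.2. The deposited lists are named for epic2, so the caller was not settled. What cutoff and control the peak calls used is not given in the sources used here. Peak ends were read as the last base covered, which puts every H3K4me3 edge on a 50 bp grid. Covered bases per 1 kb bin and per merged site were counted in NumPy 2.4.6 and pandas 2.3.3 (Python 3.11.15), and the steps were checked on simulated lists. Group differences were tested by exact permutation of 2 against 2 libraries with Benjamini-Hochberg adjustment over 5 measures. Bin classes, stage shares and sites carry no test, since bins are not replicates. Named regions were the 6 longest 8C-only and 3 longest 8A-only stretches, the 6 kept sites with the largest gap between the smaller 8C and the larger 8A length, and the 3 widest in all 4 libraries. The comparison, classes and rules were chosen with earlier results of these data known, and the stage status in trimmed lists was added after seeing the data. Gene starts were not analysed here, because the gene table at hand is of another assembly.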

Additional observations from a re-analysis of the deposited data

How the results depend on the processing

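Width at kept sites was lower in 8A in every alternative tried, of which trimming retains the wide 8C peaks. The log2 difference was -0.48 for the mean over sites, -0.65 at the 9354 sites with 1 peak in each list and -0.53 in trimmed lists, and -0.84 to -0.32 when each library was left out. Covered length gave -1.0 to -0.29 in the same way, and trimming fixes it by construction. Differences taken within replicate numbers (replicate block) were -0.64 for covered length and -0.63 for width, with an exact sign-flip p of 0.5, the smallest that 2 pairs allow, and changed no call.

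Bin classes depended more on the choices. Leaving out each library gave 33302 to 42615 kept, 19866 to 55149 8C-only and 966 to 5068 8A-only bins, the 8C-only count being highest without 8C replicate 1 and the 8A-only count without 8C replicate 2. Without 8A replicate 1 there were 25140 8C-only and 2781 8A-only bins, and without 8A replicate 2 there were 4343 8A-only bins. Trimmed lists gave 6176 8C-only and 4212 8A-only bins. With any covered base, kept bins were 70570 and 8A-only bins 2454, and with at least 80% covered they were 13634 and 257. Bins of 5 kb gave 15475 kb kept and 145 kb 8A-only, and bins of 500 bp gave 1280 kb 8A-only. Leaving out a library asks for a mark in fewer libraries, any covered base asks for fewer bases, and at least 80% covered asks for more. The cause of the shifts was not tested.

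The share of 8C-only bins in both 4C libraries was 34.8%, with 25.1% to 48.7% when a library was left out and 28.0% at 80% covered. Their share in both MO libraries was 36.8%, with 15.8% to 37.6% when a library was left out. It was 57.3% in trimmed lists, 39.4% without the lowest-scoring 25% of peaks, 34.1% with peaks under 1 kb apart joined, 34.6% in bins of 500 bp, 41.2% in bins of 5 kb, 29.6% with any base and 44.9% at 80% covered. The share of kept bins in both MO libraries was 49.0%, with 44.2% to 48.7% when a library was left out, and 55.9%, 50.7%, 45.7%, 48.3%, 24.7%, 46.5% and 48.0% in the same order of settings. Kept bins were thus more often marked in MO than 8C-only bins, except in trimmed lists of both 8C replicates together and in bins of 5 kb.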

Other observations

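The classes were spread unevenly over the chromosomes. The last 2 Mb of the autosomes held 2.33% of all bins and 12.8% of the bins marked in any of the 4 libraries. They held 20.2% of kept, 6.80% of 8C-only and 28.4% of 8A-only bins, so 8C-only bins lay there less often than marked bins in general. The first 2 Mb held 3.98%, 2.57% and 3.96% of the 3 classes, against 2.33% of all bins and 3.10% of marked bins. Chromosome ends were set at the last base of any peak. The number of 8C-only bins per kept bin ranged from 0.313 on chromosome 25 to 0.848 on chromosome 27, and it was 0.729 on chromosome 23. Chromosome 25 had the densest kept bins, with 37.7 per Mb, and chromosome 1 the sparsest, with 5.74 per Mb.

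H3K9me3, a mark of heterochromatin, was also most frequent in 8A-only bins. Both 8C libraries of H3K9me3 marked 30.3% of 8A-only, 13.5% of kept and 6.51% of 8C-only bins, against 5.42% of all autosomal bins. In both 8A libraries the shares were 38.2%, 18.1% and 9.22%, against 5.89%.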
